A study of Mus musculus with 20 samples.

Results

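The 26S proteasome is the protease that degrades ubiquitin-tagged proteins, and the genes for its subunits were followed here in brain RNA of mice with spinal muscular atrophy (SMA). The genes were the protein-coding entries whose name starts with Psm, a letter from a to g and a number, with a mean of at least 1 FPKM (fragments scaled to transcript length and to the mapped fragments of a library) over the 20 libraries. Of 50 genes with such a name, 47 reached that level, out of 15247 genes at or above it and 45700 genes listed in all. They comprised 17 core genes (Psma and Psmb), 21 regulatory genes (Psmc and Psmd) and 9 activator or chaperone genes (Psme, Psmf and Psmg). Within this rule they were chosen by name and by mean level over the 20 libraries, so levels are given as a description. Differences between groups did not enter the rule. The proteasome genes as a set were, however, chosen with earlier results of these data known. The comparisons between groups are therefore not independent of that choice.

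The libraries came from whole brains of “Taiwanese” SMA mice (Smn-/-;SMN2tg/0, congenic on FVB) and of their littermates with 1 functional Smn copy (Smn-/+;SMN2tg/0), which served as controls and look normal. Both genotypes thus carried the human SMN2 transgene, and no library came from mice with both Smn copies. Total cytoplasmic RNA and polysomal RNA were sequenced, the latter being the RNA of the pooled sucrose gradient fractions that hold messages bound by several ribosomes. Mice were taken at an early-symptomatic age, postnatal day 5 (2 of each genotype), and at a late-symptomatic age, day 7 (3 of each genotype).

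The core particle is a barrel of alpha subunits (the Psma genes) and beta subunits (the Psmb genes), of which Psmb5, Psmb6 and Psmb7 encode the proteolytic sites. Psmb8, Psmb9 and Psmb10 encode the counterparts that replace them in the immunoproteasome, which interferon induces and which is abundant in immune cells. The regulatory particle unfolds substrates with its ATPases (most Psmc genes) and holds the ubiquitin receptors, the deubiquitinase and the scaffold (most Psmd genes). Psme genes encode other caps of the barrel, Psmf1 encodes the modulator PI31, and Psmg1 to Psmg4 encode chaperones that assemble the alpha ring. The name rule also took Psmd5, Psmd9 and Psmd10, which are assembly chaperones of the regulatory particle, and Psmc3ip, a meiotic recombination protein that is not a proteasome subunit. In neurons, the proteasome clears damaged and short-lived proteins, including at synapses.

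Smn1 was listed at 8.61 to 16.7 FPKM in the control libraries and at 9.34 to 17.5 FPKM in the SMA libraries. These ranges overlapped. The allele removes part of the gene only, so a value over the whole gene does not check the genotype labels. The FPKM table gives no counts, so the depth behind a value is unknown and no detection floor is given. None of the 47 genes was listed at 0 FPKM in any library. In whole tissue, fewer cells of a type and less RNA per cell cannot be told apart. At the early stage, 2 libraries stood apart for these genes. Control polysomal replicate 1 held the highest of the 4 early polysomal values for 36 of the 47 genes, and SMA total replicate 1 held the lowest of the 4 early total values for 38.

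Levels spread widely among these genes. Since FPKM is per length, they may be compared between genes, with a limit for loci that reach beyond the annotated gene, given below. The mean level over the 20 libraries ranged from 1.16 to 607 FPKM in the core group (median 127), from 12.6 to 194 FPKM in the regulatory group (median 65.4) and from 14.8 to 155 FPKM in the activator or chaperone group (median 20.9). The highest was Psmb4 (chr3:94884093-94886961 in GRCm38, minus strand), a structural beta subunit, and the next was Psma3 with 362 FPKM. Psmd13, a scaffold subunit, had the highest mean in the regulatory group through late polysomal RNA alone, where its group means were 450 FPKM in controls and 242 FPKM in SMA brains. In the other 6 groups of libraries the ATPase Psmc3 was higher than Psmd13, for example with 154 against 121 FPKM in early control total RNA. Psmd10 was lowest in the regulatory group with 12.6 FPKM. Psme2, a subunit of the interferon-inducible PA28 cap, was highest in the third group, and the chaperone Psmg3 was lowest.

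The proteolytic subunits differed sharply from their immunoproteasome counterparts. Psmb6, Psmb7 and Psmb5 had mean levels of 216, 182 and 116 FPKM. Psmb10, Psmb9 and Psmb8 had 18.6, 1.47 and 1.16 FPKM. The deposited loci of Psmb7, Psmb8, Psmb9 and Psmb10 reached beyond the annotated gene. Whether reads of neighbouring genes enter their levels was not tested. Psmb8 and Psmb9 lay just above the limit of 1 FPKM, and the next gene above them was Psmd10. The 3 matching genes below it were Psma8 (0.201 FPKM), a subunit of the testis, Psme2b (0.107 FPKM) and Psmb11 (0.05 FPKM), a subunit of the thymus.

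Promoter windows of 300 bases were held for 40 of the 47 genes (43 windows, RefSeq, GRCm38.p6). The core of the antioxidant response element, TGACNNNGC, is the kind of site through which Nfe2l1 (Nrf1) is known to drive proteasome genes. Searched on both strands, it was in 6 of the 43 windows (14%), against 12.4% of all 32851 windows in the table. The CCAAT box was in 14 (32.6%, against 37.4%), the GC box GGGCGG in 24 (55.8%, against 35.7%) and the ZNF143 binding motif in 2 (4.65%, against 0.95%), those of Psmd10 and Psmd11. The windows with TGACNNNGC were those of Psmb5, Psmb6, Psmc6, Psmd9, Psmd12 and Psme4. The windows of the proteolytic subunits Psmb5 and Psmb6 and of Psmd12, whose polysomal share is described next, are shown beside that of Psmb4, the most abundant member, which held none of the 4 motifs. Capitals mark motif matches on either strand, and a match is only a match of letters.
Psmb5, chr14:54617946-54618245, minus strand: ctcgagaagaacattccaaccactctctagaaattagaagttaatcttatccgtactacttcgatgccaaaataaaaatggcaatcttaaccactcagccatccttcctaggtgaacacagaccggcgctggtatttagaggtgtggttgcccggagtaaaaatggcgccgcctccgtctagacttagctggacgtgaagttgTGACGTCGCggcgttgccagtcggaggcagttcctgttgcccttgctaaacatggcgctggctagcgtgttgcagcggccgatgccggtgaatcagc
Psmb6, chr11:70525107-70525406, plus strand: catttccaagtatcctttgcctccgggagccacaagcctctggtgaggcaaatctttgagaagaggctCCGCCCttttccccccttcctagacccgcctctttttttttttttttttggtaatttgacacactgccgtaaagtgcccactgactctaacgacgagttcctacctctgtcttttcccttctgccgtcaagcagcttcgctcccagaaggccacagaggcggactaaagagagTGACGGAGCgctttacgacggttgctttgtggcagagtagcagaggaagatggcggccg
Psmd12, chr11:107479278-107479577, plus strand: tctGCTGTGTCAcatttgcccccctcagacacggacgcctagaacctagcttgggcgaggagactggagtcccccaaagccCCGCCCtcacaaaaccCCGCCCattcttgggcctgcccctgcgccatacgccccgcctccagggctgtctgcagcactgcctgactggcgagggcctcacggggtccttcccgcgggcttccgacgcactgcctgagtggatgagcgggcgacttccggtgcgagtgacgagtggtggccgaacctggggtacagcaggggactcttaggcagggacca
Psmb4, chr3:94886909-94887208, minus strand: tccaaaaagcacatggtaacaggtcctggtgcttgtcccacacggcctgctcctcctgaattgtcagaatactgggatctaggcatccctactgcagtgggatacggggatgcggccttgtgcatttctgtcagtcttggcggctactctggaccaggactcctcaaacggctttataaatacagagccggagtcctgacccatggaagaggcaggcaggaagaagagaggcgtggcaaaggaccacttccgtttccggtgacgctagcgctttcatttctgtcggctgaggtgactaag

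Most proteasome messages had higher FPKM in polysomal than in total RNA, in both genotypes and at both stages. According to the study's methods, total RNA was pooled from the fractions of the gradient profile and polysomal RNA from the polysomal ones only. Total RNA thus includes the polysomal RNA, and FPKM is relative to each library. A higher polysomal value means a larger share of that library, not a larger amount of RNA. The values were compared as log2(FPKM + 0.1) with limma, a gene being called at an unadjusted p under 0.05, the threshold of the study, and separately after Benjamini-Hochberg adjustment over the 15247 genes. The median difference between polysomal and total RNA over the 47 genes was 0.50 in control and 0.36 in SMA brains at the early stage, and 0.25 and 0.26 at the late stage. Over all genes tested, it was 0.02, 0.00, 0.05 and 0.05. Of the 15247 genes tested, 13101 were protein-coding, whereas all of the 47 were so by rule. Here and below, shares and medians over protein-coding genes alone were not computed. In early controls, 25 of the 47 genes were called higher in polysomal RNA, where 12.3% of all genes were, and in early SMA brains 20 were (5.65% of all genes). In late controls 30 were called higher (14.8%), and in late SMA brains 32 (17.7%) with 3 called lower (11.9%). After adjustment 0 passed at the early stage, in controls (0.118% of all genes higher, 1.2% lower) or in SMA brains (0.125% and 0.21%), whereas 13 were higher in late controls (2.97%) with 0 lower (4.15%), and 24 were higher in late SMA brains (5.63%), where 1 was lower (5.4%). The labels do not say which total and polysomal libraries came from the same brain. With the replicate number as a block, the adjusted count in late controls was 2 (0.617%), those of Psma2 and Psmd12, and in late SMA brains it was 19 (7.21%).

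**Figure D1:**
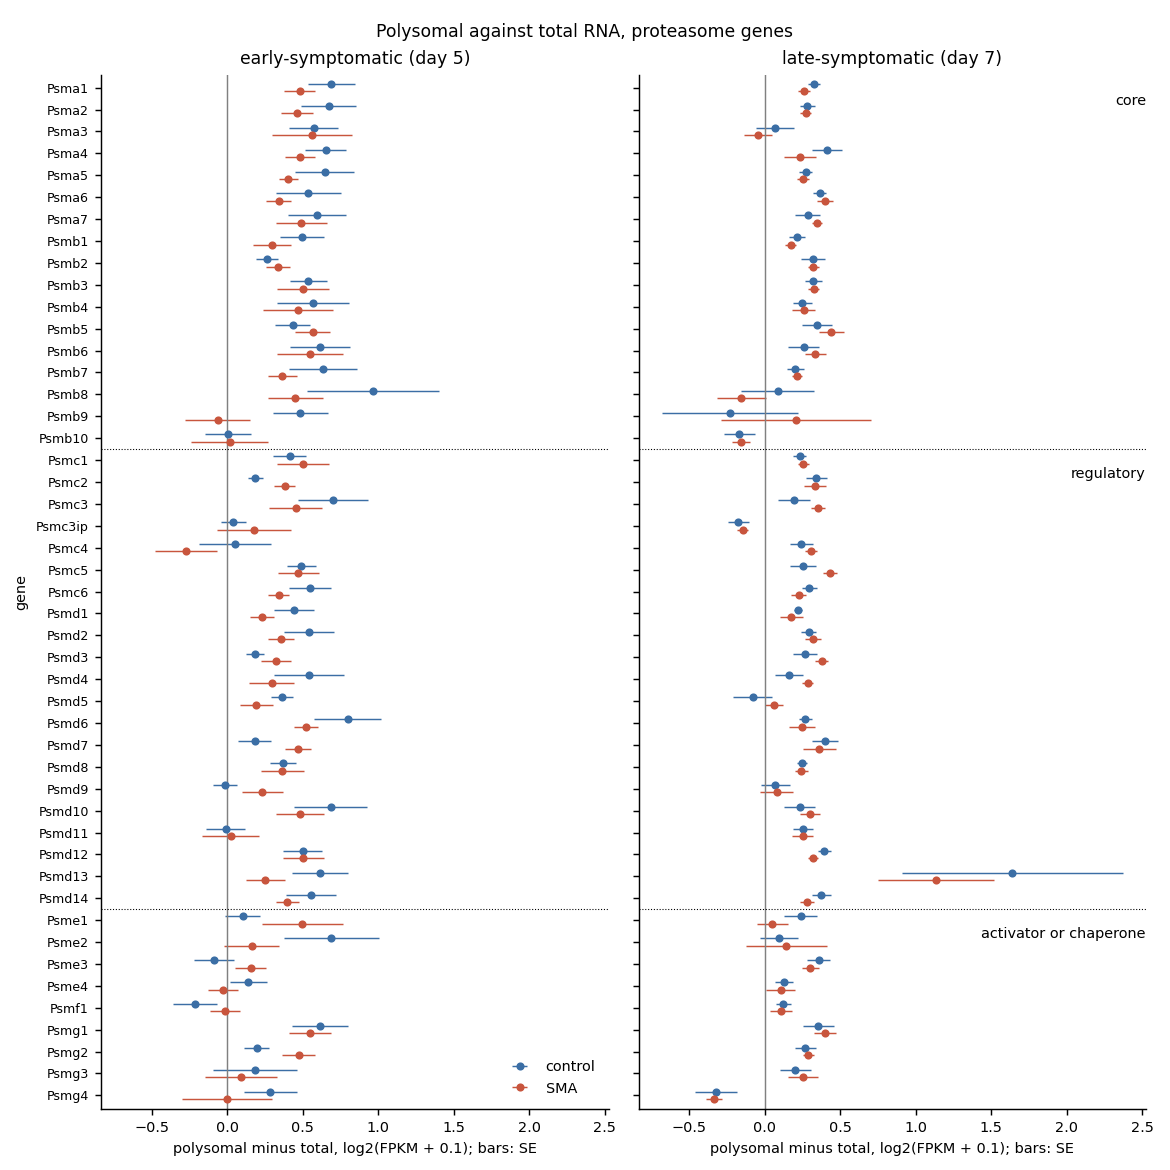
Difference between polysomal and total RNA in log2(FPKM + 0.1) for each of the 47 genes, in control (blue) and SMA (red) brains at the early and the late stage, with bars for the standard error. Most core and regulatory genes lie right of 0 in all 4 comparisons (group medians from 0.25 to 0.57), whereas Psmb10, Psmc3ip and Psmg4 lie at or left of 0 at the late stage.

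Of the 47 genes, 34 had a higher mean log2 level in polysomal RNA in all 4 comparisons, and 24 had no overlap between the fractions in any of them. Groups without overlap and higher in polysomal RNA numbered 37 of 47 in early controls (33.9% of all genes), 37 in early SMA brains (25.2%), 30 in late controls (18.3%) and 33 in late SMA brains (21.1%). The core median was 0.57 in early controls, 0.46 in early SMA brains, 0.27 in late controls and 0.26 in late SMA brains. The regulatory medians were 0.44, 0.36, 0.25 and 0.29, and those of the activator or chaperone group were 0.18, 0.15, 0.20 and 0.14. Called in all 4 comparisons were 13 genes, namely Psma1, Psma2, Psma5, Psmb2, Psmb5, Psmc2, Psmc5, Psmc6, Psmd2, Psmd6, Psmd12, Psmd14 and Psmg1. The share of all genes that were higher, without overlap or called in all 4 comparisons was not computed. These counts over 4 comparisons thus have no background beside them.

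Among the alpha subunits, Psma1 had 93.1, 90.3 and 94.2 FPKM in the total RNA of late controls and 111, 120 and 117 FPKM in their polysomal RNA. In late SMA brains its total RNA had 87.4, 90.8 and 93.2 FPKM and its polysomal RNA 109, 104 and 112 FPKM. Every polysomal library was above every total library in both genotypes, with differences of 0.33 ± 0.04 (SE, n = 3 against 3, limma adjusted p = 0.0151) and 0.26 ± 0.04 (limma adjusted p = 0.0243). Psma7, another alpha subunit, had the smallest adjusted p of the 47 genes in late SMA brains. It had 129, 136 and 136 FPKM in total and 167, 168 and 173 FPKM in polysomal RNA, a difference of 0.34 ± 0.03 (limma adjusted p = 0.0071).

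The proteolytic subunits followed the same pattern. Psmb5, which encodes the chymotrypsin-like site, had 89.0, 86.8 and 104 FPKM in the total RNA of late SMA brains and 118, 128 and 132 FPKM in polysomal RNA. The fractions did not overlap, and the difference was 0.44 ± 0.08 (limma adjusted p = 0.0365). In late controls its difference was 0.35 ± 0.10 (limma adjusted p = 0.109). Psmb6 and Psmb7 differed by 0.33 ± 0.07 and 0.21 ± 0.03 in late SMA brains, with limma adjusted p of 0.0458 and 0.0229.

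The immunoproteasome counterparts were not called higher in any of the 4 comparisons. Psmb10 had 17.04, 17.5 and 19.4 FPKM in total and 15.7, 16.1 and 16.4 FPKM in polysomal RNA of late SMA brains. All polysomal values were below all total values, and the difference was -0.16 ± 0.06 (limma adjusted p = 0.152). For Psmb8 the difference lay between -0.15 and 0.97 and for Psmb9 between -0.23 and 0.48 over the 4 comparisons. At about 1 FPKM their standard errors reached 0.44 and 0.50.

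In the regulatory particle, Psmd12 had the smallest adjusted p in late controls. This scaffold subunit had 34.7, 35.6 and 34.5 FPKM in total and 44.2, 48.4 and 45.4 FPKM in polysomal RNA of late controls, a difference of 0.40 ± 0.04 (limma adjusted p = 0.011). The fractions did not overlap in either genotype at either stage, and in late SMA brains the difference was 0.32 ± 0.03 (limma adjusted p = 0.0101). The ATPase Psmc5 differed by 0.43 ± 0.05 in late SMA brains (limma adjusted p = 0.0108) and by 0.25 ± 0.08 in late controls (limma adjusted p = 0.144). Psmd6 had the largest called difference in early controls, 0.80 ± 0.22, with 67.4 and 60.3 FPKM in total and 134 and 92.1 FPKM in polysomal RNA. Its limma adjusted p there was 0.165.

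Psmd13 differed most of all at the late stage and was also the least repeatable. Its polysomal RNA had 137, 776 and 438 FPKM in the 3 late control brains and 254, 127 and 344 FPKM in the 3 late SMA brains, against 80.3 to 196 FPKM in total RNA. The control fractions overlapped, and the differences were 1.64 ± 0.73 in controls (limma adjusted p = 0.243) and 1.13 ± 0.38 in SMA brains (limma adjusted p = 0.124). Its locus in the deposited table (chr7:140856957-140898643) starts upstream of the Gencode M21 gene, which begins at 140881968. Psmd13 is one of 14 of the 47 genes whose loci reached over 1000 bases beyond the annotated gene. The others were Psma3, Psma5, Psmb7, Psmb8, Psmb9, Psmb10, Psmc3, Psmc3ip, Psmd1, Psmd5, Psmd9, Psme1 and Psmg3. Whether reads of neighbouring genes enter the values of these genes, including the levels above and the values below, was not tested. Since 42 or 43 of the 47 genes lay above 0 in each fraction comparison, leaving out Psmd13 alone could not turn a median.

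Among the genes of the regulatory group that do not encode stable subunits, values differed. Psmc3ip was lower in the polysomal RNA of late SMA brains, with 18.6, 18.1 and 17.7 FPKM against 20.3, 19.5 and 20.5 FPKM in total RNA. These values did not overlap, and the difference was -0.15 ± 0.04 (limma adjusted p = 0.0676). The chaperones Psmd9 and Psmd5 differed by 0.08 ± 0.11 and 0.06 ± 0.06 in late SMA brains, whereas the chaperone Psmd10 differed by 0.30 ± 0.07 (limma adjusted p = 0.0514).

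The activator and chaperone genes split. Psme3 (the nuclear PA28 gamma cap), Psmg1 and Psmg2 were higher in the polysomal RNA of late SMA brains after adjustment, by 0.30 ± 0.05, 0.40 ± 0.07 and 0.29 ± 0.03 (limma adjusted p = 0.032, 0.031 and 0.0124). Psme1 and Psme2, the PA28 alpha and beta subunits, differed by 0.05 ± 0.10 and 0.14 ± 0.27 there. Psme4 (PA200) and Psmf1 differed by 0.11 ± 0.10 and 0.11 ± 0.07, and Psmg3 by 0.25 ± 0.10 (limma adjusted p = 0.173). Psmg4 went the other way. It had 44.0, 43.6 and 41.7 FPKM in total and 35.9, 31.9 and 34.7 FPKM in polysomal RNA of late SMA brains, a fall of -0.34 ± 0.05 (limma adjusted p = 0.0251), and its difference in late controls was -0.32 ± 0.14 (limma adjusted p = 0.228). At the early stage, Psmg4 differed by 0.29 ± 0.18 in controls and 0.00 ± 0.30 in SMA brains.

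The polysomal medians were also computed with transcript length accounted for and without single libraries. The longest transcripts of the 47 genes had a median of 1883 nucleotides, against 3172 over the tested genes. With the length trend of each library removed, the medians in early controls, late controls, early SMA and late SMA brains were 0.43, 0.23, 0.30 and 0.24. Without control polysomal replicate 1, the early control median was 0.33, with 27 genes called higher (10.2% of all genes). Without SMA total replicate 1, the early SMA median was 0.30, with 15 called higher (4.76%). With only 1 early library left in an arm the count depended on which one, and without control total replicate 1 it was 0 in controls (2.33% of all genes), and without SMA polysomal replicate 1 it was 1 in SMA brains (0.649%).

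**Figure D2:**
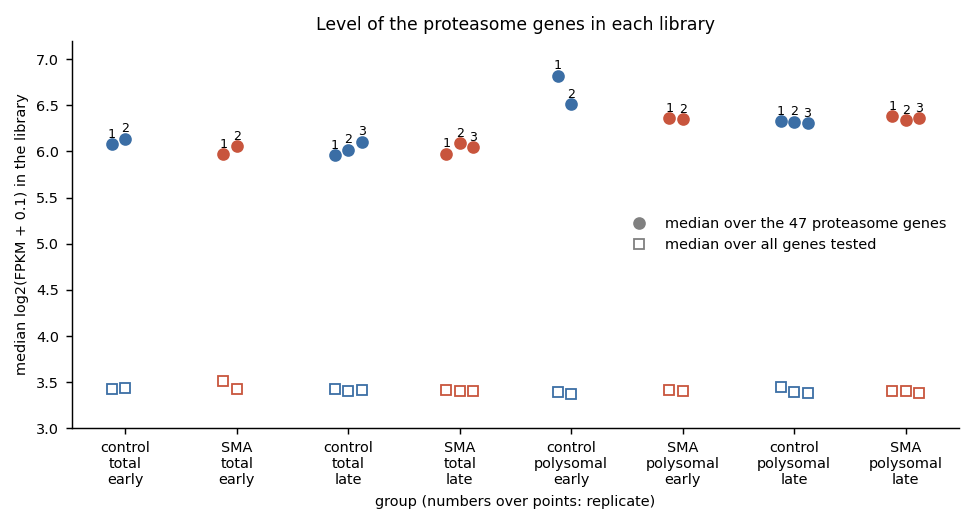
Median log2(FPKM + 0.1) of the 47 genes (filled points) and of all genes tested (open squares) in each of the 20 libraries, by group, control in blue and SMA in red. The median of the 47 genes lies between 5.96 and 6.14 in the total libraries and between 6.30 and 6.82 in the polysomal ones, and control polysomal early replicate 1 is the highest.

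In early-symptomatic SMA brains, most proteasome genes were listed lower than in control littermates, but few differences passed the test. In total RNA, 42 of the 47 genes had a lower mean log2 level and 5 a higher one (46.7% and 52% of all genes), with a median difference of -0.25 where that of all genes was 0.01. In polysomal RNA, 41 were lower and 6 higher (50.7% and 47.3% of all genes), with a median of -0.34 where that of all genes was -0.01. Called lower were 5 genes in total RNA (3.89% of all genes) and 4 in polysomal RNA (6.82%), and none was called higher (4.36% and 5.65%). After adjustment 0 were lower in total RNA (0.0656% of all genes) and 0 in polysomal RNA (0.0525%), and 0 were higher in either (0.0984% and 0.597%). The 2 SMA values lay below both control values in 32 of the 47 genes in total RNA (22.5% of all genes) and in 34 in polysomal RNA (26.6%), and above both in 2 genes in total RNA (25.1%) and 3 in polysomal RNA (23.9%).

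The core genes were the most uniform. All 17 were lower in both fractions (46.7% and 50.7% of all genes in total and polysomal RNA), with medians of -0.32 and -0.46. In polysomal RNA all 17 were lower without overlap (26.6% of all genes). The regulatory medians were -0.17 and -0.26, with 18 of 21 genes lower in each fraction. The activator or chaperone medians were -0.28 and -0.12, with 7 and 6 of 9 genes lower. With the length trend removed, the core medians were -0.14 and -0.29, with 15 and 16 of the 17 genes lower. The regulatory medians were then -0.06 and -0.11. That of the activator or chaperone group was -0.11 in total RNA and turned to 0.05 in polysomal RNA, with 5 genes higher and 4 lower. Genes listed higher in both fractions were Psmd11, Psme4 and Psmf1, by 0.26 ± 0.17, 0.35 ± 0.14 and 0.07 ± 0.09 in total RNA.

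**Figure D3:**
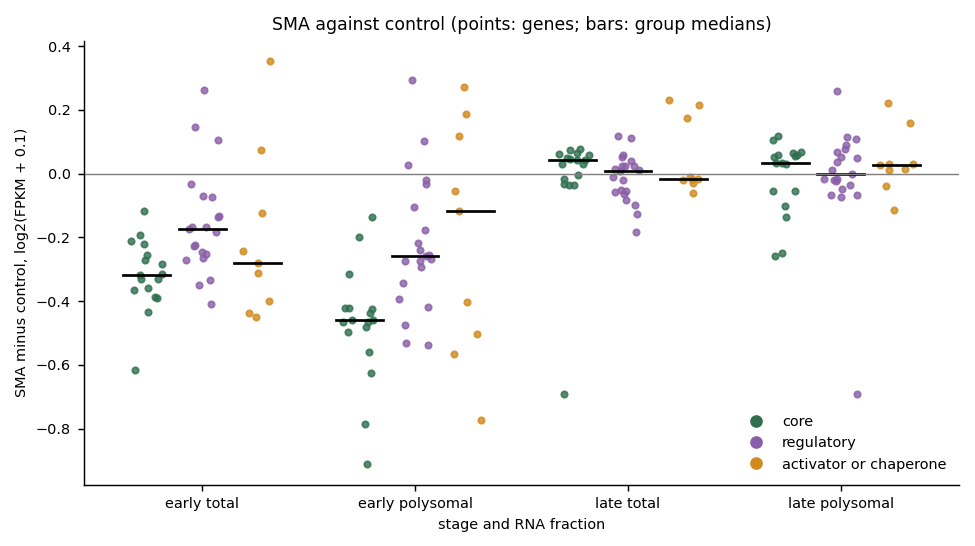
SMA minus control in log2(FPKM + 0.1) for each of the 47 genes (points), by stage and RNA fraction and by group of genes, with black bars for the group medians. The core medians lie at -0.32 and -0.46 in the early comparisons and at 0.04 and 0.03 in the late ones.

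The genes called lower in early total RNA were Psma1, Psma5, Psmd6, Psmg1 and Psmg2. The assembly chaperone Psmg1 had 23.0 and 20.8 FPKM in controls and 14.8 and 17.6 FPKM in SMA brains, a difference of -0.44 ± 0.13 (limma adjusted p = 0.551). Psmg2, its partner in the chaperone dimer, had 19.8 and 19.6 FPKM in controls and 14.2 and 15.6 FPKM in SMA brains, a difference of -0.40 ± 0.08 with the same adjusted p. For both genes each SMA value was below each control value. Psma5 had 83.5 and 80.2 FPKM against 64.2 and 66.9 FPKM in SMA brains, without overlap and with a difference of -0.32 ± 0.06.

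The genes called lower in early polysomal RNA were Psmb9, Psma3, Psma4 and Psmb3. Psmb9 had 2.17 and 2.81 FPKM in controls and 1.17 and 1.37 FPKM in SMA brains, a difference of -0.91 ± 0.19 at a level close to the limit of 1 FPKM. Psma3 had 451 and 351 FPKM against 285 and 233 FPKM, a difference of -0.63 ± 0.20. Psma4 had 180 and 157 FPKM against 122 and 118 FPKM, a difference of -0.48 ± 0.10. In these 3 genes the genotypes did not overlap, and all limma adjusted p were at least 0.38.

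The most abundant member showed how far single libraries set these values. Psmb4 had 565 and 539 FPKM in control total RNA and 369 and 502 FPKM in SMA total RNA at the early stage. Its polysomal values were 971 and 692 FPKM in controls and 603 and 591 FPKM in SMA brains. Each SMA value was below each control value, and in each fraction 1 library lay far from its partner, SMA total replicate 1 and control polysomal replicate 1. The differences were -0.36 ± 0.21 and -0.46 ± 0.25, and neither was called. Without those libraries, the median over the 47 genes was -0.13 in total RNA, with 5 called lower (4.55% of all genes), and -0.19 in polysomal RNA, with 4 called lower (4.82%). Without SMA total replicate 2 instead, 29 genes were called lower in total RNA (13.3%) and 1 higher (15.1%), and without control polysomal replicate 2, 32 were called lower in polysomal RNA (12.6%). A single model over the 20 libraries, whose spread is estimated from all groups, called 20 genes lower in early total RNA (9.75% of all genes) and 28 in early polysomal RNA (13%), 5 of them after adjustment (1.73%).

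The early difference moved with transcript length across all genes, with a median of -0.23 in total RNA for genes whose longest transcript had a median of 1247 nucleotides and of 0.11 for those with 4728. Its part in the values above was examined by removing the length trend. In total RNA the corrected median was -0.11 with 0 genes called lower (3.6% of all genes), and in polysomal RNA it was -0.25 with 3 called lower (5.66%), a share of the 47 genes close to that of all genes. Without the libraries that stood apart, the corrected medians were -0.05 and -0.09.

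**Figure D4:**
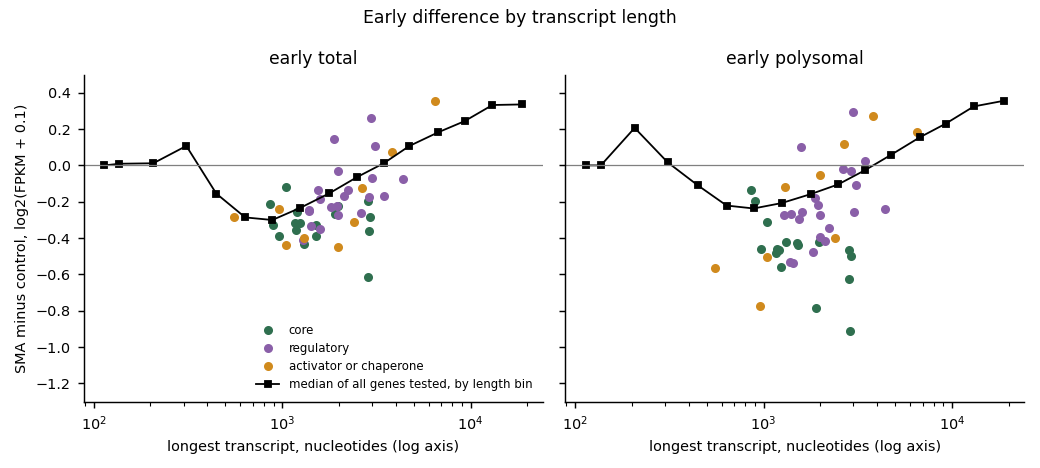
SMA minus control at the early stage in log2(FPKM + 0.1) against the length of the longest transcript (log axis, nucleotides), for the 47 genes coloured by group and as medians of all tested genes in length bins (black line), in total RNA (left) and polysomal RNA (right). The bin medians fall below 0 for transcripts of about the length of the 47 genes (median 1883 nucleotides), and most core genes in polysomal RNA lie below the line.

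At the late stage the genotypes hardly differed in these genes. The median was 0.01 in total RNA, with 25 genes higher and 22 lower (49.1% and 49% of all genes), and 0.03 in polysomal RNA, with 28 higher and 19 lower (49% and 48.6%). In each fraction 1 gene was called higher (4.84% and 5.35% of all genes) and none lower (4.7% and 5.38%). After adjustment 0 were higher (0.0197% and 0.0394%) and 0 lower (0.0918% and 0.0525%). The genotypes did not overlap in 2 genes in total RNA, both higher (7.63% of all genes, with 0 lower against 7.37%), and in polysomal RNA in 4 higher (7.86%) and 1 lower (8.24%). Psmg4 was called in total RNA, with 39.6, 32.1 and 38.7 FPKM in controls and 44.0, 43.6 and 41.7 FPKM in SMA brains. The groups did not overlap, and the difference was 0.23 ± 0.09. Psmf1 was called in polysomal RNA, with 17.3, 17.7 and 17.8 FPKM in controls and 20.1, 20.3 and 18.7 FPKM in SMA brains, a difference of 0.16 ± 0.05, again without overlap. Outside Psmb9, Psmb8 and Psmd13, the late differences of the 47 genes lay between -0.14 and 0.26 in both fractions.

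The change from the early to the late genotype difference was tested as an interaction. Its median over the 47 genes was 0.25 in total RNA and 0.36 in polysomal RNA, where those of all genes were -0.02 and 0.01. A positive value means that SMA relative to control was higher at the late than at the early stage. It was called positive for 11 genes in total RNA (4.55% of all genes) and 18 in polysomal RNA (6.81%), and in no gene in the other direction (5.6% and 6.86%). After adjustment it was called in 0 genes in total RNA (0.0459% higher and 0.0787% lower over all genes) and 0 in polysomal RNA (0.059% and 0.538%). With the length trend removed, the medians were 0.09 and 0.18. Then 3 genes were called positive in total RNA (3.05% of all genes) and 9 in polysomal RNA (4.31%). In the other direction 1 gene, Psme3, was called in polysomal RNA (4.78%). Without the early libraries that stood apart as well, the corrected medians were 0.05 and 0.07. In polysomal RNA, the largest called values were those of Psme2 (0.79 ± 0.30), Psmg4 (0.79 ± 0.24) and Psma3 (0.57 ± 0.19), each with a limma adjusted p above 0.05.

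The change in translation efficiency, the polysomal over total difference in SMA minus that in controls, was called for none of the 47 genes. No gene was called in either direction at the early stage (1.26% and 1.06% of all genes) or the late stage (1.09% and 0.977%), and after adjustment by limma the counts were also 0, early (0.538% and 0.0787%) and late (0.0328% and 0.00656%). The early median was -0.11, where that of all genes was -0.03, and the late median was 0.00. Without control replicate 1 the early median was 0.11, and without SMA replicate 2 it was 0.07, with 0 genes called lower (0.846% and 3.05% of all genes) and 0 and 2 called higher (1.13% and 3.19%). Without control replicate 2 it was -0.31, with 7 genes called lower (2.87%). At the late stage, outside Psmb8, Psmb9 and Psmd13, single values lay between -0.19 and 0.18 with standard errors of up to 0.31. The 0 calls do not show that translation efficiency was equal.

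Levels also changed with age, and Psmb2 stood out. This structural beta subunit had 64.1 and 67.8 FPKM in control total RNA on day 5 and 96.2, 82.2 and 98.8 FPKM on day 7. In SMA polysomal RNA it had 71.8 and 72.2 FPKM on day 5 and 120, 122 and 120 FPKM on day 7. It rose after adjustment in control total RNA (0.48 ± 0.10, limma adjusted p = 0.0387), control polysomal RNA (0.54 ± 0.06, limma adjusted p = 0.0193), SMA total RNA (0.76 ± 0.07, limma adjusted p = 0.029) and SMA polysomal RNA (0.74 ± 0.03, limma adjusted p = 0.00333). Day 7 lay above day 5 without overlap in all 4, and no other gene of the 47 passed adjustment in all 4. Stage cannot be told apart from any batch in which the stages were handled.

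Psma3 and Psmf1 moved the same way in part of the comparisons. The deposited locus of Psma3 reached 19485 bases beyond the annotated gene. Psma3 had 143 and 213 FPKM in SMA total RNA on day 5 and 441, 372 and 464 FPKM on day 7, a difference of 1.28 ± 0.22 that was called but did not pass adjustment. It rose in control total RNA by 0.60 ± 0.14 (limma adjusted p = 0.0489) and in SMA polysomal RNA by 0.67 ± 0.10 (limma adjusted p = 0.0267), and its difference in control polysomal RNA was 0.10 ± 0.15. Psmf1 rose by 0.50 ± 0.11 in control polysomal RNA (limma adjusted p = 0.0456) and by 0.39 ± 0.07 in SMA polysomal RNA (limma adjusted p = 0.0349).

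**Figure D5:**
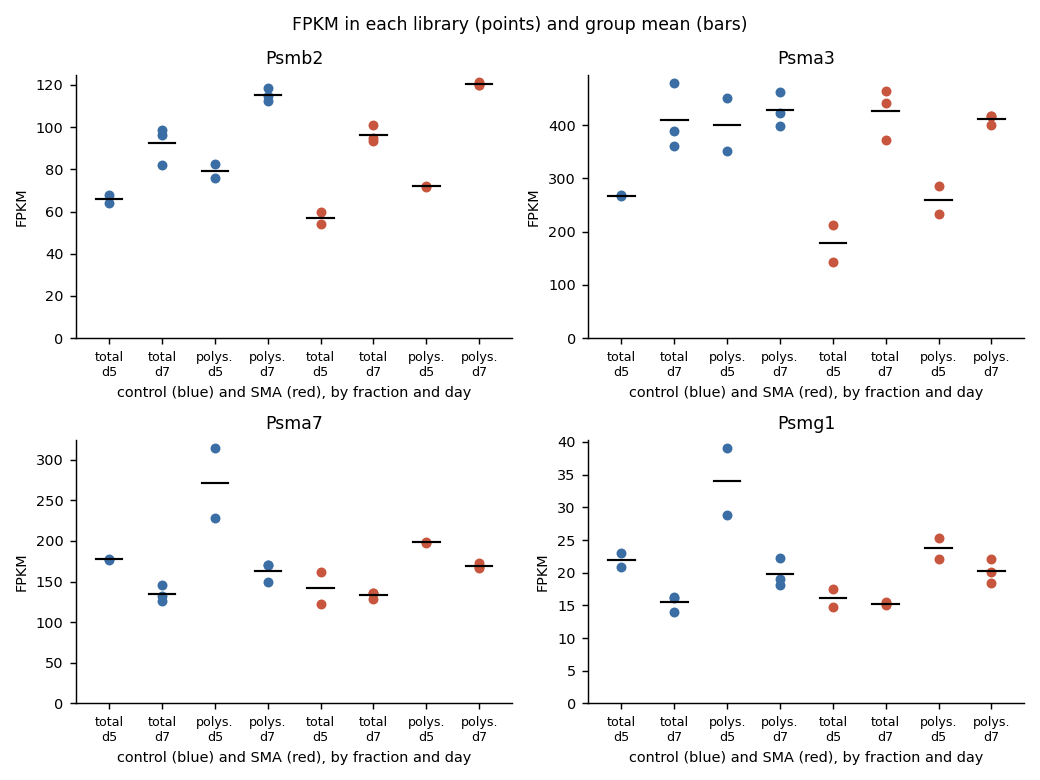
FPKM of Psmb2, Psma3, Psma7 and Psmg1 in each library (points, from 0) with the group mean (black bar), by genotype, fraction and day. Psmb2 lies higher on day 7 in all 4 pairs of groups, whereas Psma7 and Psmg1 had a lower mean log2 level on day 7 in all 4. Their log2 differences ranged from -0.72 to -0.08 for Psma7 and from -0.76 to -0.08 for Psmg1.

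Most other proteasome genes were lower on day 7 in controls. The median difference was -0.15 in control total RNA, with 18 genes called lower (20.1% of all genes) and 2 higher (20.1%), and -0.38 in control polysomal RNA, with 23 called lower (21.4%) and 3 higher (20.7%). In SMA brains the medians were 0.05 in total RNA, with 2 called lower (17%) and 9 higher (15.7%), a median that turned to -0.04 with the length trend removed (6 called higher, 18.6%, and 3 lower, 15.8%) and a count of 11 that was 2 with the replicate block, and -0.06 in polysomal RNA, with 10 called lower (19.9%) and 5 higher (21.1%). After adjustment 10 genes fell in control total RNA (9.46% of all genes) and 6 in control polysomal RNA (8.3%). In SMA brains 0 fell in total RNA (2.11%) and 3 in polysomal RNA (10%). Those that rose numbered 2 in control total RNA (11.8%), 3 in control polysomal RNA (12.3%), 1 in SMA total RNA (3.45%) and 3 in SMA polysomal RNA (12.6%).

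Psmg1 fell in both control fractions, from 23.0 and 20.8 FPKM to 16.1, 14.1 and 16.2 FPKM in total RNA (-0.50 ± 0.09, limma adjusted p = 0.0338) and from 39.1 and 28.9 FPKM to 18.1, 19.1 and 22.3 FPKM in polysomal RNA (-0.76 ± 0.17, limma adjusted p = 0.0476). In SMA brains its differences were -0.08 ± 0.09 and -0.23 ± 0.11. Psmb10 fell in control total RNA by 0.47 on the log2 scale (limma adjusted p = 0.0278) and Psma7 by 0.40 (limma adjusted p = 0.0319). Psme2 fell in control polysomal RNA, from 355 and 223 FPKM to 128, 127 and 137 FPKM (-1.11 ± 0.22, limma adjusted p = 0.0384). In SMA polysomal RNA, Psma7, Psmd12 and Psme4 fell by 0.23, 0.24 and 0.33 on the log2 scale (limma adjusted p = 0.0299, 0.0338 and 0.0475). The early control and early SMA libraries also entered the genotype comparison, so the 2 sets of values are not independent. Without control polysomal replicate 1 the control polysomal median was -0.20, with 12 genes called lower (12.6%), and without SMA total replicate 1 the SMA total median was -0.08. With the replicate number as a block 0 of the 47 genes passed adjustment in any of the 4 comparisons. Over all genes, 0.0721% rose and 0.177% fell in control total RNA, and 0.459% and 0.157% in control polysomal RNA. In SMA total RNA 0% rose and 0% fell, and in SMA polysomal RNA 0.0525% and 0.138%. Mice of day 5 and day 7 were different animals, so equal replicate numbers do not pair them.

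Genes around the proteasome showed scattered differences between genotypes, none past adjustment. Of 18 tested partners, which deliver ubiquitinated proteins, edit ubiquitin chains or help assembly, 2 were called higher (4.36% of all genes) and 2 lower (3.89%) in early total RNA. These were the proteasome-associated scaffold AI314180 (Ecpas, 0.34 ± 0.10), the unfoldase Vcp (0.19 ± 0.06), the assembly chaperone Pomp (-0.32 ± 0.09) and the proteasome-associated thioredoxin Txnl1 (-0.38 ± 0.10). In early polysomal RNA Shfm1 (Sem1, a small subunit outside the name rule) was the only partner called (-0.62 ± 0.07, with 6.82% of all genes lower). At the late stage Uchl5, a proteasome-bound deubiquitinase, was the only partner called in total RNA (-0.39 ± 0.11, with 4.7% of all genes lower) and Zfand5 in polysomal RNA (-0.18 ± 0.04, with 5.38% lower). The late change in translation efficiency was called for Uchl5 (0.41 ± 0.14) and Ubqln4 (0.17 ± 0.08), where 1.09% of all genes were higher. Called higher in polysomal than in total RNA were 12 of the 18 partners in late SMA brains (17.7% of all genes) and 9 in late controls (14.8%).

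The regulators of proteasome transcription and the ubiquitin genes gave no call between genotypes. Of the regulators 6 were tested, and 0 were called in any genotype or translation efficiency comparison. Nfe2l1 differed by 0.20 ± 0.11 in early total RNA, 0.15 ± 0.13 in early polysomal RNA, 0.03 ± 0.09 in late total RNA and 0.01 ± 0.05 in late polysomal RNA. The 4 ubiquitin genes had median differences of -0.18, -0.22, 0.05 and 0.04 in the same order. Of 10 tested genes of interferon signalling and class I presentation, 6 were lower and 4 higher in early total RNA, 8 and 2 in early polysomal RNA, 5 and 5 in late total RNA, and 7 and 3 in late polysomal RNA. The list medians were -0.16, -0.34, -0.01 and -0.04. Among those reported here, B2m was called lower in early total RNA (-0.65 ± 0.12), late total RNA (-0.26 ± 0.04) and late polysomal RNA (-0.34 ± 0.09), H2-K1 in early total and polysomal RNA (-0.32 ± 0.11 and -0.67 ± 0.20) and Irf1 in early polysomal RNA (-0.63 ± 0.11). None of them passed adjustment. Of all genes, 3.89% were called lower in early total, 6.82% in early polysomal, 4.7% in late total and 5.38% in late polysomal RNA.

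Markers of several cell types differed between genotypes, and their part in the values above was not tested. Of 5 endothelial markers 4 were lower in SMA brains in every comparison, and their summed level was 59.5 to 68.0 FPKM in early control total RNA against 28.5 to 32.3 FPKM in early SMA total RNA, and 39.1 to 51.7 against 23.9 to 27.6 FPKM at the late stage. All 5 markers of dividing cells were lower in SMA brains in every comparison, with a summed level of 40.1 to 63.1 against 25.4 to 28.8 FPKM in early total RNA and 20.9 to 41.5 against 10.7 to 27.1 FPKM in late total RNA. The summed level of 5 neuron markers was 473 to 500 FPKM in early control polysomal RNA and 1343 to 1432 FPKM in early SMA polysomal RNA. Tubb3 made up most of that difference, being listed at 0 in both early control polysomal libraries and at 859 to 986 FPKM in the early SMA ones. Of the 5 neuron markers, 3 were higher and 2 lower in early polysomal RNA. In early total RNA 4 of them were lower, in late total RNA 5 and in late polysomal RNA 4. Of 5 neutrophil markers, only S100a8 and S100a9 reached 1 FPKM, and both were higher in SMA brains in every comparison, with list medians of 1.43 and 1.10 in early total and polysomal RNA and 2.17 and 2.10 in late total and polysomal RNA. The summed neutrophil level was 2.21 to 2.35 against 5.55 to 7.15 FPKM in early total RNA and 1.86 to 4.92 against 5.40 to 40.7 FPKM in late total RNA. All 5 oligodendrocyte markers were higher in SMA brains at the late stage, with medians of 0.25 in total and 0.30 in polysomal RNA, and none was called. At the early stage 4 of the 5 were lower in each fraction, with medians of -0.06 and -0.22. Medians of 5 astrocyte markers were 0.11, -0.04, 0.09 and 0.08 in early total, early polysomal, late total and late polysomal RNA. In the same order they were -0.04, -0.09, 0.10 and -0.04 for 6 microglia markers. For 5 erythroid markers they were -0.11, -0.49, -0.14 and -0.28.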

How the data were processed

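Total cytoplasmic and polysomal RNA of whole mouse brain was sequenced in 20 libraries. According to the study's methods and the submitters' processing notes, reads were aligned with TopHat2 2.0.14 to GRCm38.p4 and quantified with Cufflinks 2.2.1 on Gencode M6, and the authors deposited FPKM values per gene and library. FPKM holds no counts, so depth is unknown and CuffDiff and Xtail, which the study used, could not be run. The count of columns left unused was 0.

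Genes whose mean reached 1 FPKM were tested as log2(FPKM + 0.1) with limma 3.58.1 in R 4.3.3 (moderated, with a variance trend, two-sided), fitted on the libraries of each comparison, with Benjamini-Hochberg adjustment over 15247 genes. A fold change on this scale understates the change of low genes. The fits were tested on simulated data. Replicates are separate mice according to the design. The proteasome genes, the other gene lists and the markers were chosen with earlier results of these data known.

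Genes were named by role (the proteolytic subunits and their counterparts, the extremes of level, all Psme, Psmf and Psmg genes) and by comparison (up to 3 with the largest difference among those called without overlap). Genes of other lists were named where called without overlap in a genotype comparison, with Nfe2l1 always. Psmd5, Psmd9, Psmd10, Psmb4 and Psmb2 beyond this rule were picked after their values were seen. Transcript lengths came from Gencode M21 and promoters from RefSeq on GRCm38.p6. The length trend was a lowess curve (span 0.3) per library.

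The labels number replicates alike in both fractions. Over the 14335 genes above 0 FPKM in every library, deviations from the group means of same-numbered late total and polysomal libraries correlated at 0.16 to 0.45 in controls and 0.24 to 0.45 in SMA brains, and those of the genotypes at -0.14 to 0.10. Over all 15247 tested genes the late fraction correlations were -0.01 to 0.01 in controls and 0.07 to 0.11 in SMA brains, so the pairing rests on leaving out genes listed at 0 somewhere. A gene of the interferon list is not reported here.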

Additional observations from a re-analysis of the deposited data

How the results depend on the processing

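Over all alternatives tried, 545 medians and counts stayed within the limits set and 167 moved. Some medians changed sign. The median for day in SMA total RNA was 0.05, and -0.04 with length correction. That for early translation efficiency was -0.11, and 0.11 without control replicate 1. The late total genotype median was 0.01, and -0.02 without control replicate 2. The polysomal minus total median stayed above 0 in 82 of 82 alternatives (0.21 to 0.65) and the early SMA minus control median below 0 in 40 of 40 (-0.56 to -0.05). These alternatives include some that change only the estimated spread, such as robust variance or 1 model over the 20 libraries. Such settings cannot move a median, so the 2 counts overstate how far the medians were tested. Of 974 values for named genes under an alternative, 805 kept their call, 169 lost it and 0 reversed.

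In this paragraph the genotype comparisons are early total, early polysomal, late total and late polysomal, and counts are of genes called among the 47. Here and below, the share of all genes called also differed between settings and is not given beside each count. With the replicate block, 2.24% of all genes were called higher and 2.54% lower in early total RNA, against 4.36% and 3.89% without it. A count alone thus does not show a change particular to the 47 genes. After adjustment the counts were 0, 0, 0 and 0 for genotype, 0, 13 and 0 for fraction in early controls, late controls and early SMA brains, 12, 9, 1 and 6 for day (control total, control polysomal, SMA total, SMA polysomal) and 0 and 0 for the stage difference (total, polysomal). At an unadjusted p under 0.01 they were 0, 0, 0 and 0, then 0, 19 and 5, then 11, 9, 3 and 5, then 2 for the stage difference in total RNA and 2 in polysomal RNA. One model over the 20 libraries gave 21, 30 and 0 for the first 3 genotype comparisons, 1 for the early translation efficiency, 31 for fraction in early SMA brains and 9 for day in SMA polysomal RNA. With the replicate block the counts were 2 in early total, 11 in early polysomal and 0 in late polysomal RNA, 13 for fraction in early SMA brains, 2 and 8 for day in SMA total and polysomal RNA (median -0.0353 in the latter) and 7 for the stage difference in total RNA, and the block changed the adjusted fraction counts as given with them.

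Length correction gave medians of -0.11 in early total and 0.00611 in late polysomal RNA (0 and 2 called), 0.30 for fraction in early SMA brains, -0.0372 and -0.0935 for day in SMA total and polysomal RNA, and 0.0946 and 0.18 for the stage difference (3 and 10 called). Length correction with the block gave the same medians for genotype, fraction and stage difference, -0.0354 for day in SMA total RNA, and counts of 0, 11, 2 and 0 for genotype, 17, 2 and 8 for day in control polysomal, SMA total and SMA polysomal RNA, and 2 and 9 for the stage difference. Quantile normalization gave 2 in early total and 3 in late polysomal RNA, 1 for early translation efficiency, a median of -0.16 for day in SMA polysomal RNA, 3 for the stage difference in total RNA and a median of 0.22 for it in polysomal RNA. Equal library medians gave 15 in early and 2 in late polysomal RNA and medians of 0.43 for fraction in early SMA brains and 0.12 for day in SMA total RNA. Robust variance gave 3, 12 and 2 in early total, early polysomal and late polysomal RNA and 6 for day in SMA total RNA. Without a filter the counts were 2 in early polysomal, 0 in late total and 2 in late polysomal RNA, 1 for early translation efficiency and 13 for fraction in early controls. A filter at 5 FPKM gave 2 in late polysomal RNA, genes above 0 everywhere gave 14 in early polysomal RNA and 6 for day in SMA total RNA, no variance trend gave 0 in late total RNA, and leaving out both early libraries that stood apart, an alternative chosen after seeing the data, gave 1 for early translation efficiency. Length correction without those libraries, also chosen after seeing the data, gave medians of -0.0501 in early total and -0.0931 in early polysomal RNA (1 and 2 called), 0.33 and 0.30 for fraction in early controls and early SMA brains, -0.16 (13 called) and -0.0905 for day in control polysomal and SMA total RNA, 0.0506 and 0.0729 for the stage difference (0 and 3 called), and 1 called for early translation efficiency. The cause was not tested.

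The share of all genes called also moved with the library left out and is not given beside the counts below. In the late polysomal genotype comparison without control replicate 1, 8.36% of all genes were called higher and 5.16% lower. With every library these shares were 5.35% and 5.38%. Leaving out 1 library in turn gave these ranges of the median and of the count. For genotype they were -0.35 to -0.13 and 0 to 30 (early total), -0.56 to -0.19 and 1 to 32 (early polysomal), -0.02 to 0.05 and 0 to 2 (late total) and -0.00673 to 0.0395 and 0 to 6 (late polysomal). For translation efficiency they were -0.31 to 0.11 and 0 to 7 (early) and -0.03 to 0.04 and 0 to 1 (late). For fraction they were 0.33 to 0.65 and 0 to 34 (early control), 0.23 to 0.29 and 25 to 35 (late control), 0.30 to 0.45 and 1 to 30 (early SMA) and 0.26 to 0.29 and 30 to 35 (late SMA). For day they were -0.20 to -0.10 and 12 to 24 (control total), -0.54 to -0.20 and 15 to 35 (control polysomal), -0.0772 to 0.22 and 6 to 22 (SMA total) and -0.0857 to -0.0353 and 10 to 14 (SMA polysomal). For the stage difference they were 0.14 to 0.34 and 6 to 28 (total) and 0.19 to 0.48 and 6 to 33 (polysomal). Where an early arm kept 1 library, that library was assumed to vary like the other group.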
